A study of Mus musculus with 64 samples.

Results

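The nuclear-encoded genes of the mitochondrial respiratory chain and ATP synthase were followed across microdissected inner ear tissues of CBA/J mouse embryos from embryonic day 9 (E9) to E15. Members were all genes whose symbol starts with Nduf, with Sdh followed by a, b, c or d, or with Uqcr, Cox4, Cox5, Cox6, Cox7, Cox8 or Atp5, and which had a probe set assigned to 1 gene. This gave 87 genes out of 12393 genes with such a probe set. Complex I was covered by 34 genes, complex II by 4, complex III by 8, complex IV by 16 and complex V by 17, and 8 further symbols belong to assembly factors of complexes I and II. The symbol rule holds Ndufa4 under complex I, although the protein is now counted with complex IV. Another 13 genes that follow the rule had no single-gene probe set and were not analysed here. The filter on low signals kept 86 members among 9352 genes tested. Cox8b, the heart and muscle form of a small complex IV subunit, was the member left out. Its signal ranged from the floor of 10 to 63.4 with a median of 32.1, it was at the floor on 5 of 64 arrays, and it reached the array median on 0 arrays.

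The 64 arrays formed 32 groups of 2, each array holding pooled tissues (6 to 17 where the labels give a number, which they do not for the 4 surrounding arrays pooled over days), and the 2 pools of a group came from different litters. The otic placode (E9) and the otic vesicle (E9.5, E10) represent the whole ear. The cochlea and the vestibular organ were taken separately at E10.5, E11, E11.5 and E12. The cochlea, the saccule, and the utricle with its ampullae were taken at E12.5, E13, E13.5, E14, E14.5 and E15. Non-inner ear tissue from next to the ear, called surrounding tissue below, formed 3 groups, at E9, pooled over E9.5 to E10.5, and pooled over E11 to E15. No group carried a treatment or an engineered allele, dispase digestion was longer from E11 on per the labels' protocols, and the p-values below rest on the spread between such pools.

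The respiratory chain passes electrons from NADH through complex I, and from succinate through complex II, to complex III, cytochrome c and finally complex IV, which reduces oxygen. Complexes I, III and IV pump protons, and complex V, the ATP synthase, lets them return through a ring of c subunits to make ATP. Most subunits are encoded in the nucleus, and several complex IV subunits exist as paired forms with different tissue use: Cox7a1, Cox6a2 and Cox8b are the heart and skeletal muscle forms, while Cox7a2, Cox6a1 and Cox8a are found in most tissues. The inner ear of these stages goes from a patch of thickened ectoderm to separate organs with hair cells, whose later function depends on ATP.

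Promoter windows of the genes around which the results below turn came from RefSeq, on the build GRCm38.p6, which held a window for 73 of the 87 members. Each window ran from 250 bases before to 50 bases after a transcription start. Shown 5′ to 3′ on the gene's strand are the 120 bases before the start of Cox7a1 (chr7:30184051-30184170, plus strand) and Cox7a2 (chr9:79759854-79759973, minus strand), the 2 forms of one complex IV subunit that moved in opposite directions in the cochlea. Cox6a1 (chr5:115348959-115349078, minus strand) is shown as another widely used form, and Cox5a (chr9:57521112-57521231, plus strand) and Atp5g2 (chr15:102671048-102671167, minus strand) as members with large changes in several comparisons. Capitals mark matches to GCGCA, any base, then GCGC (NRF1), or to CCGGAAG (ETS family), searched on both strands.
Cox7a1: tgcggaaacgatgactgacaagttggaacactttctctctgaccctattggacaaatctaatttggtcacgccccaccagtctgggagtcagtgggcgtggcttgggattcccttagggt
Cox7a2: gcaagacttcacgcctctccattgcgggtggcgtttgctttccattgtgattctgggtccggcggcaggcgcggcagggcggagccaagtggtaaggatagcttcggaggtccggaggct
Cox6a1: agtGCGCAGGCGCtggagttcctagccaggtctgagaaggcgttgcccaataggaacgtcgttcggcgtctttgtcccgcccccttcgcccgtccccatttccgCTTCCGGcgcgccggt
Cox5a: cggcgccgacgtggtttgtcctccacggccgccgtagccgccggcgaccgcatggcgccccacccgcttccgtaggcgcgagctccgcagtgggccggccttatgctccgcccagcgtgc
Atp5g2: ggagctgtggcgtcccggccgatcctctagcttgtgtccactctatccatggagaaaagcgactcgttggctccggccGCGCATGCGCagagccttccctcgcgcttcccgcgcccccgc
Nuclear respiratory factor 1 (NRF1), ETS factors and YY1 are known regulators of such genes. The NRF1 letters were found in the windows of 17 of the 73 members (23.3%), against 5.19% of 27025 genes with a window. The ETS letters were found for 20 members (27.4%, against 9.93%), the YY1 letters AAGATGGCG for 6 (8.22%, against 1.64%) and the TATA box letters TATAAA for 7 (9.59%, against 15.7%). A gene counted once if any of its windows held the letters, and no matches of different motifs overlapped in a member's window. By complex, the NRF1 letters stood in 6 of 15 complex V windows, among them Atp5g2 at position -42 from the start, but in 4 of 31 for complex I and in 1 of 11 for complex IV, the latter being Cox6a1. A match describes these letters only.

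Array-wide measures differed between groups, with median signals of 64.7 to 107.6 and 2% trimmed means of 224.7 to 355.3 before normalization. Between 5.43% and 12.04% of probe sets lay at the signal floor of 10, with the E11 arrays at 9.81% to 12.04% and all others at 5.43% to 8.63%. The highest signal of the cochlear arrays lay between 9660 and 10969 up to E12 and between 13291 and 14691 from E12.5. Log2 signals of the 2 arrays of a group correlated at 0.9473 (utricle and ampullae, E14) to 0.9914 (vestibular organ, E11.5). Summed epithelial marker signals were 2900 to 6270 in the whole ear at E9 to E10 and 4889 to 22202 in the cochlea. They were 16208 to 24106 in the saccule and 557 to 1170 in surrounding tissue. The cochlear sums rest largely on Otog, with a median of 6872.9, and on Oc90, with a median of 6506.3 and a range of 306.1 to 8387.3. In these bulk samples, fewer cells of a type and less RNA per cell cannot be told apart.

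The members varied over the groups about as widely as other genes. Between its lowest and highest group mean a member spanned a median of 1.51 log2 units, against 1.48 over all genes. The narrowest ranges belonged to Cox6b1 (0.53), Uqcrc2 (0.56), Atp5j (0.58), Ndufa7 (0.59) and Sdhc (0.68), which are subunits of complexes IV, III, V, I and II. The widest belonged to Ndufa3 (3.68), Atp5g2 (2.98), Atp5e (2.91), Ndufb1 (2.87), Ndufaf4 (2.84), Atp5g1 (2.79) and Uqcr11 (2.74). Several of these are small subunits: Atp5e is the epsilon subunit of the ATP synthase, and Atp5g1 and Atp5g2 encode the same mature c subunit. Ndufaf4 is a complex I assembly factor.

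Across the 32 groups, the correlation of a member with the median of the other members had a median of 0.61, from -0.57 to 0.97, and 56 of 86 members (65.1%) reached 0.5. Among the 9266 other genes the median was -0.06 and 8.52% reached 0.5. This is a description, since members share the arrays and their scaling. Without the E14 groups the members' median was 0.51, and 44 of them (51.2%) reached 0.5, against 6.14% of the others. The closest followers were Ndufb5 (0.97), Cox6c (0.96), Ndufb2 (0.95) and Ndufa5 (0.95), and by complex 26 of 34 members of complex I and 13 of 17 of complex V reached 0.5, but 7 of 15 of complex IV and 3 of 8 assembly factors. A further 14 members correlated below 0, led by Cox8c (-0.57), Cox7c (-0.42), Sdhc (-0.39), Cox6a2 (-0.27), Ndufv1 (-0.24) and Ndufa8 (-0.20). Cox7c read low here and in all comparisons below, with log2 group means of 6.4 to 8.33, against a median level of 10.17 in complex IV. Its probe set may not reflect the main transcript.

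**Figure D1:**
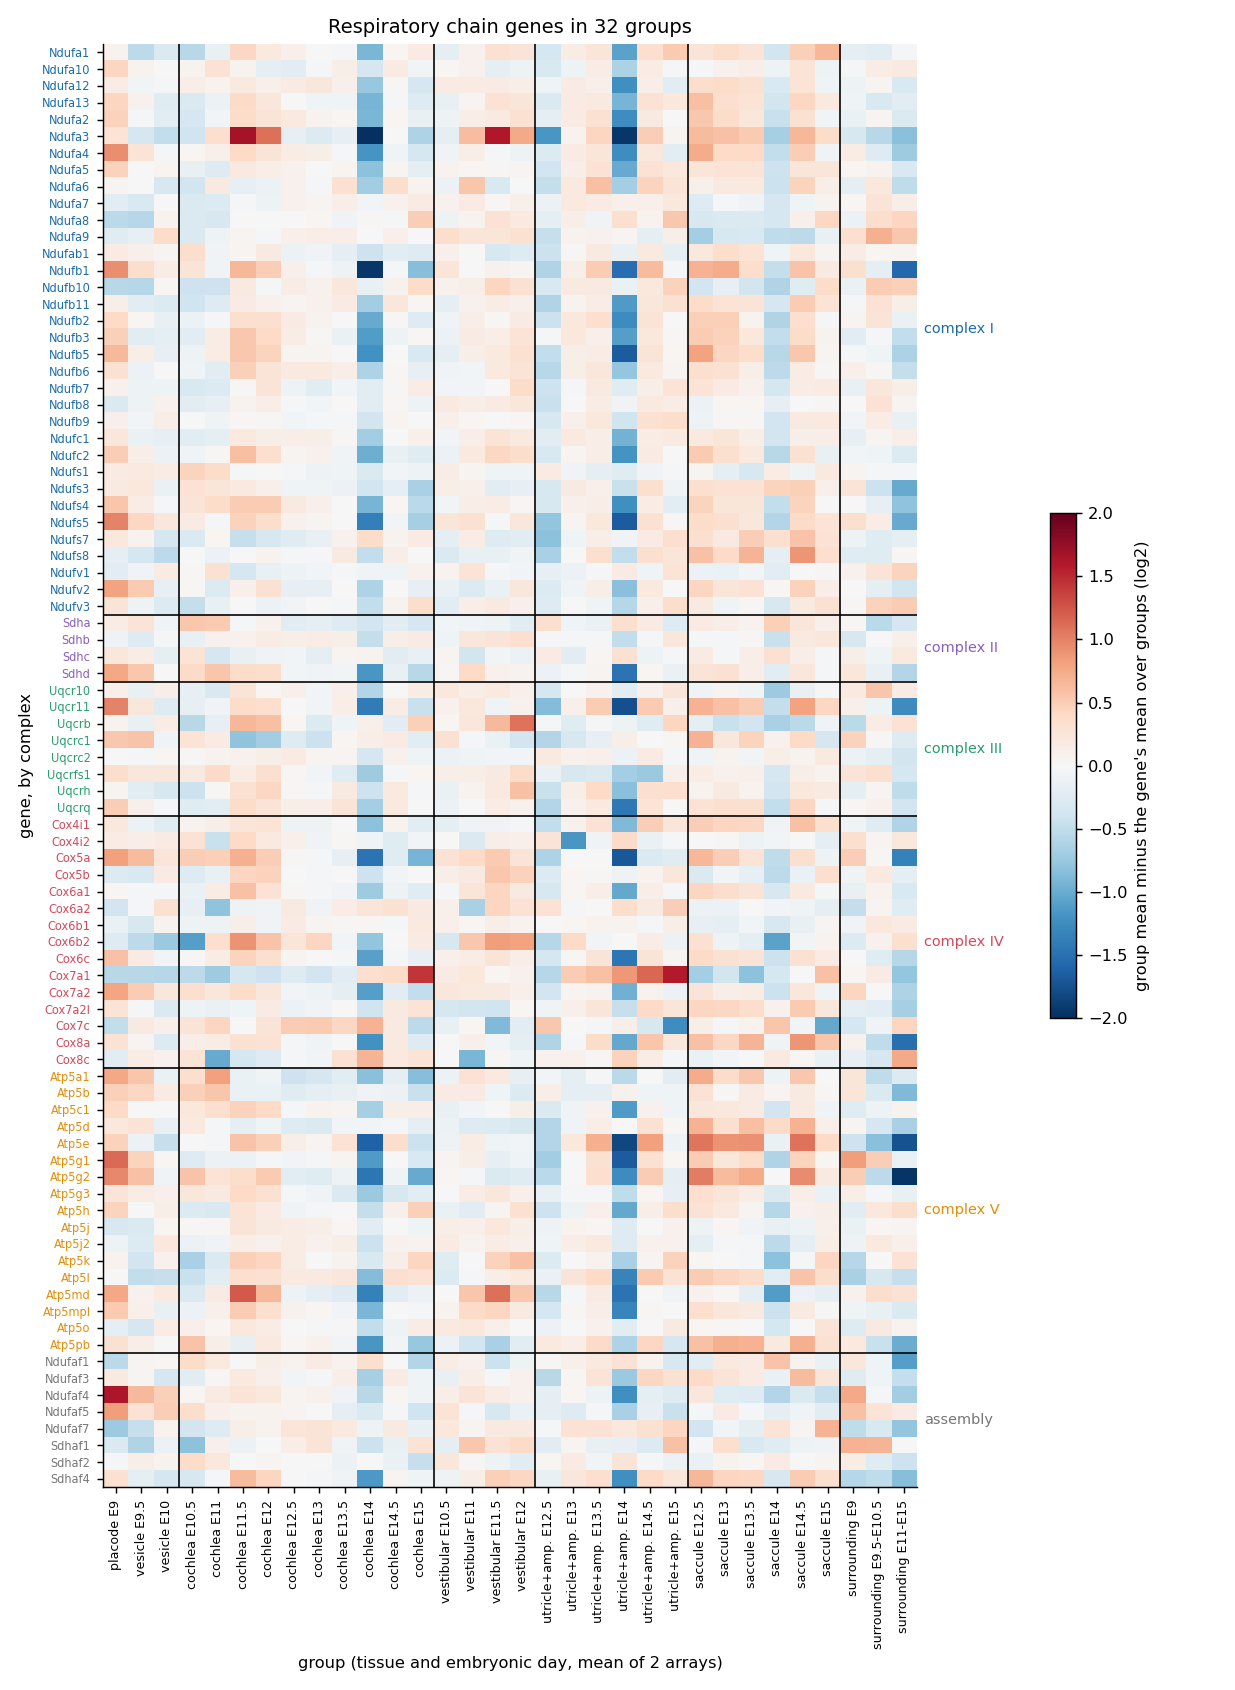
Group mean minus the gene's mean over the 32 groups (colour, log2) for the 86 members tested, ordered by complex, in each group along the horizontal axis. Colours end at 2 and -2, and larger deviations take the end colour. The E14 groups stand out as low columns for many members of complexes I and V, while a few genes, such as Cox7a1 and Cox8c, run their own course.

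The 2 arrays of a group mostly placed the members at the same height. The median deviation of the members from their own means differed by 0.09 (median over groups) between the arrays of a group, and by less than 0.15 in 22 groups. It differed by at least 0.3 in 5 groups, led by the utricle and ampullae at E14 (-0.94 and -0.29). The others were the otic vesicle at E9.5 (-0.24 and 0.16), the cochlea at E10.5 (0.16 and -0.23), the saccule at E14 (-0.49 and -0.16) and the utricle and ampullae at E12.5 (-0.46 and -0.14). Results that rest on these groups are given below with single arrays left out.

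**Figure D2:**
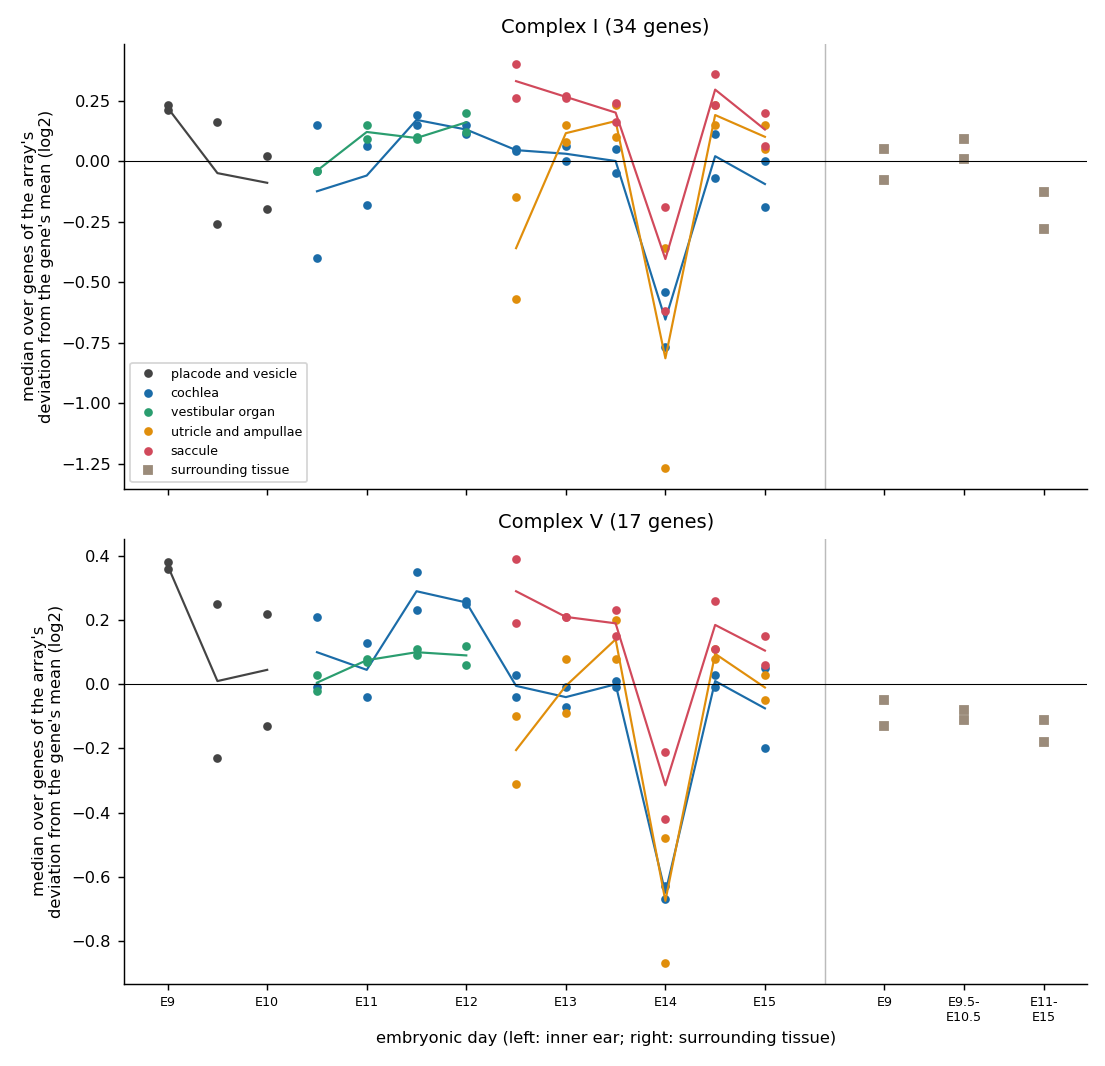
Median deviation of the complex I and complex V members from their own means (log2) on each array (dots), against embryonic day, with lines through group means and surrounding tissue at the right. Both complexes dip at E14 in the cochlea, the utricle with ampullae, and the saccule, and the E14 utricle arrays lie far apart.

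At E9, when the placode was compared with the tissue around it, few members passed the test in the main model, although most read higher in the placode. Members were called at a Benjamini-Hochberg adjusted p below 0.05 over the 9352 genes in limma, and differences are of log2(normalized signal + 16). The test called 13 of 86 members (15.1%), 10 higher and 3 lower in the placode, against 22.9% of all genes (11.0% higher, 11.9% lower). The members' median was 0.24, with 67 of 86 above 0, and that of all genes -0.05. The complex I core subunit Ndufv2 was read at 1958 and 2023 in the placode and at 1177 and 1092 in surrounding tissue. The assembly factor Ndufaf4 was read at 491 and 411 against 246 and 235. The arrays of the 2 tissues did not overlap for either gene, and Ndufv2 was higher in the placode by 0.80 (SE 0.18, limma adjusted p = 0.0013) and Ndufaf4 by 0.86 (SE 0.19, limma adjusted p = 8.53e-04). The complex II assembly factors Sdhaf4 (0.88) and Sdhaf1 (-0.98) differed in opposite directions, and Ndufaf1 (-0.77) and Ndufa9 (-0.57) were lower in the placode. Within complex V, Atp5h (0.67), Atp5k (0.64) and the gamma subunit Atp5c1 (0.63) were higher. Fits with array weights, or of these groups alone, called more members, as given in the closing section on processing. The count of 13 is fragile. It was 3 without placode replicate 1, 4 without placode replicate 2, 5 without surrounding replicate 1 and 4 without surrounding replicate 2, and 42 (42 higher, 0 lower) on the deposited values without quantile normalization, which also moved the median of all genes to 0.32.

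At E9.5 to E10.5 the ear groups were compared with surrounding tissue of the same days. Here 19 members were called, 11 higher and 8 lower, against 34.0% of all genes (16.6% higher, 17.4% lower), and the median member differed by 0.03. Of the 11 higher ones, 5 belonged to complex V, where 0 of 17 were lower: Atp5g2 (0.80), the alpha and beta subunits Atp5a1 (0.69) and Atp5b (0.59), the stalk subunit Atp5pb (0.55) and Atp5d (0.39). The other probe sets of Atp5a1 gave -0.22 and -0.13. Atp5pb and Atp5d were named after their values were seen. In complex I, 5 of 34 were lower and 1 higher, with Ndufb10 (-0.75), Ndufv3 (-0.70) and Ndufa9 (-0.62) lower and Ndufs3 (0.52) higher. Sdha, the flavoprotein of complex II, was higher by 0.67, and Sdhaf1 lower by -1.09. The count was 12 without surrounding replicate 1 and 9 without surrounding replicate 2 of this pool. Deposited values without quantile normalization gave 42 (39 higher, 3 lower) and moved the median of all genes to 0.33, while the comparison's own groups alone gave 11.

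From E11 on, the inner ear had higher levels than the tissue around it for many members, led by a subunit of the ATP synthase c ring. Over E11 to E15, 45 of 86 members (52.3%) were called, 37 higher and 8 lower in the ear, against 55.7% of all genes, of which 29.0% were higher and 26.7% lower. The share called was thus near the background, and the split was more one-sided. The members' median was 0.28, beside 0.24 at E9, and that of all genes -0.01. On the deposited values the split was 50 higher and 3 lower.

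Atp5g2 was read at 288 and 308 in surrounding tissue of E11 to E15. In the cochlea it ran from 1319 through 1598 to 2086 (lowest, median, highest of 8 arrays) at E10.5 to E12 and from 422 through 1018 to 1189 (12 arrays) at E12.5 to E15. In the saccule it ran from 1132 through 2020 to 2843 and in the utricle with ampullae from 305 through 1162 to 1786, over 12 arrays each. All inner ear arrays except the lower E14 utricle array lay above both surrounding arrays. The difference was 1.96 (SE 0.17, limma adjusted p = 1.11e-12), or 3.89-fold. Cox8a, the common form of the smallest complex IV subunit, was 653 and 765 in surrounding tissue, 1839 through 2948 to 4127 in the saccule, 754 through 1999 to 2406 in the late cochlea and 595 through 2244 to 3151 in the utricle with ampullae. The organs lay above both surrounding arrays except for 1 E14 array each of cochlea and utricle, at 754 and 595. It was higher in the ear by 1.59 (SE 0.19, limma adjusted p = 4.01e-09). Atp5e (1.88, SE 0.30), Ndufb1 (1.58, SE 0.22), Cox5a (1.34, SE 0.18), Uqcr11 (1.29, SE 0.30), Ndufaf1 (1.13, SE 0.15), Ndufa3 (1.06, SE 0.30) and Ndufs3 (1.03, SE 0.16) were the others among 9 members higher by at least 1 log2 unit, against 8.47% of all genes.

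By complex, 11 members of complex I were higher and 5 lower, 1 and 1 of complex II, 4 and 0 of complex III, 9 and 2 of complex IV, 6 and 0 of complex V, and 6 and 0 of the assembly factors. The medians were 0.18, 0.15, 0.36, 0.36, 0.14 and 0.57 in the same order. Among the genes lower in the ear, Cox8c was read at 605 and 653 in surrounding tissue of E11 to E15 and at 171 to 491 in the cochlea of E10.5 to E12. It was lower by -0.83 (SE 0.10, limma adjusted p = 1.00e-08). Of the cochlear arrays at later stages, 1 of the E14 pair reached the surrounding level, at 617. Ndufa9 (-0.59), Ndufv3 (-0.52), Ndufv1 (-0.48), Ndufb10 (-0.45), Ndufa8 (-0.41), Cox7c (-0.44) and Sdhc (-0.25) were also lower, and 5 of these 7 belong to complex I. Ndufb10 and Ndufa8 were named after their values were seen. Of the 45 members, 21 had several probe sets, all of which pointed the same way. Neuronal markers moved with this comparison: 8 of 8 were lower in the ear, with sums of 2964 to 21421 in surrounding tissue and 697 to 5619 in the cochlea. Mesenchymal markers were lower for 8 of 8, with sums of 3455 to 13340 in surrounding tissue and 791 to 1978 in the cochlea. Endothelial markers were lower for 5 of 5, with sums of 855 to 1004 in surrounding tissue and 291 to 443 in the cochlea, and macrophage markers for 2 of 3, with 486 to 5661 and 277 to 859. Red blood cell markers were lower for 4 of 6 and higher for 1, with 5301 to 13087 and 755 to 10366. The part of cell makeup in the members' differences was not tested.

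**Figure D3:**
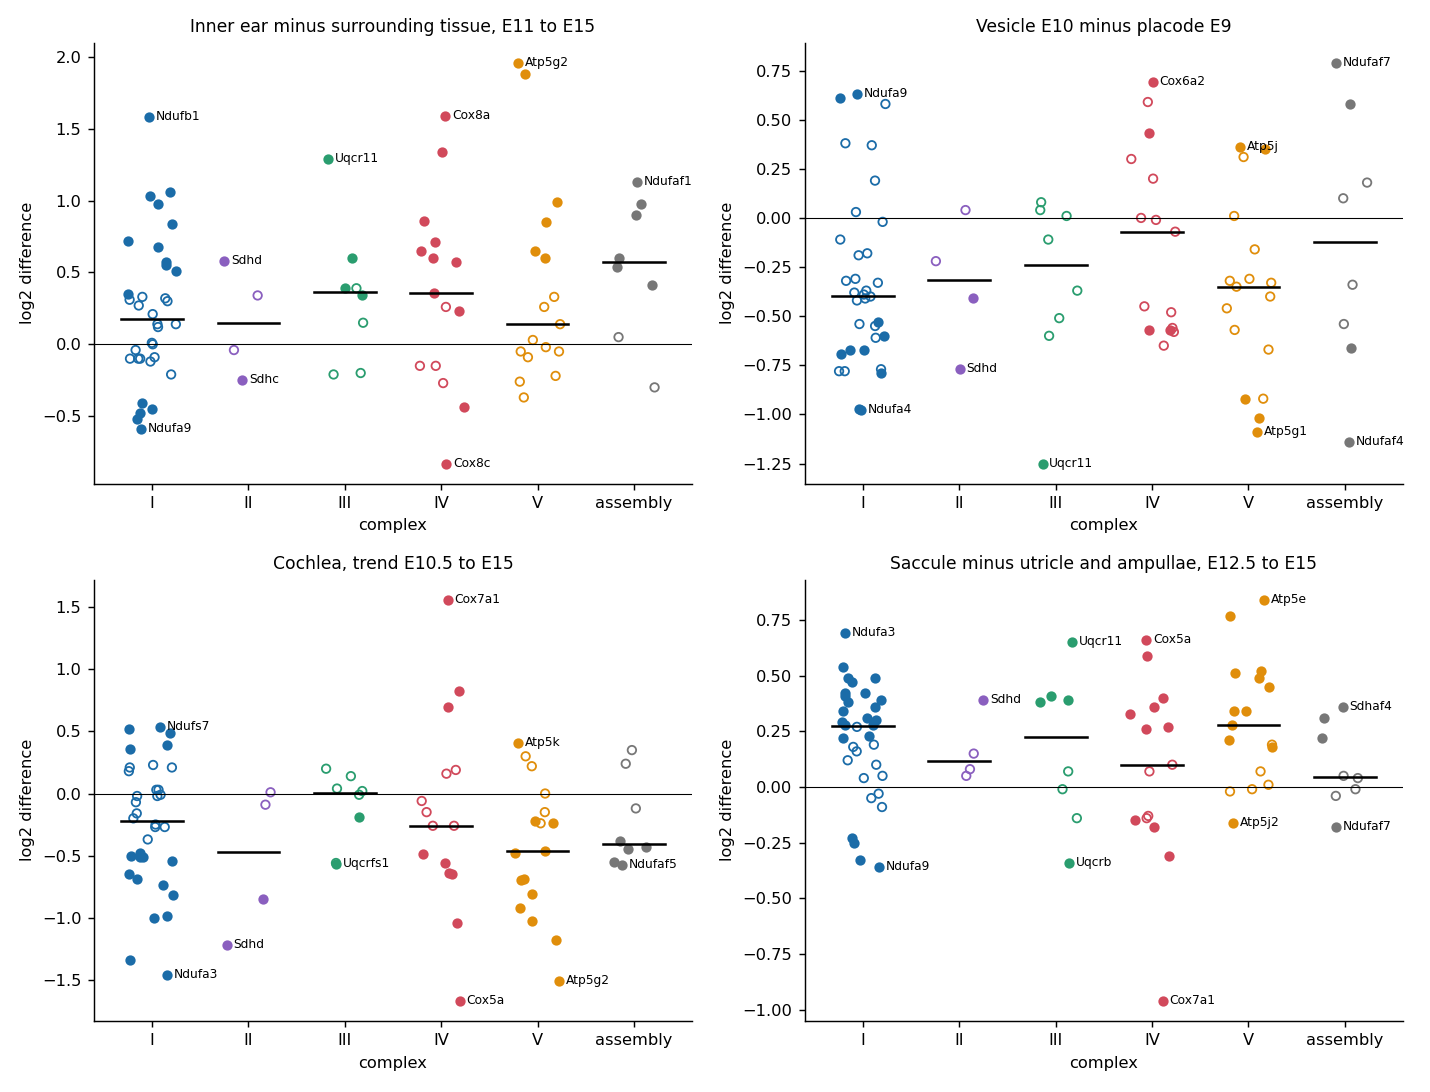
Log2 difference of each member, by complex, in 4 comparisons (ear minus surrounding tissue at E11 to E15, vesicle at E10 minus placode at E9, cochlear change over E10.5 to E15, saccule minus utricle with ampullae). Filled dots passed the test, open dots did not, and bars mark medians, which lie above 0 for all complexes in the first and last panel and below 0 in the second.

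Surrounding tissue itself changed between E9 and the pool of E11 to E15. Dispase digestion was longer for the later pool, and its part in the change was not tested. Of the members, 37 were called, 11 higher and 26 lower in the later pool, against 46.9% of all genes (22.8% higher, 24.1% lower), and the median member changed by -0.23 (all genes 0.00). Atp5g2 went from 1736 and 1642 through 801 and 852 in the middle pool to 288 and 308, a fall of 5.44-fold (-2.44, SE 0.23, limma adjusted p = 4.14e-11). Cox8a went from 2008 and 2328 through 1434 and 1436 to 653 and 765 (-1.59, SE 0.26, limma adjusted p = 3.73e-06). No array of one pool overlapped the next for either gene. Cox5a (-1.83), Ndufb1 (-1.89), Ndufaf4 (-1.44), Uqcr11 (-1.37), Ndufs5 (-1.33) and Ndufaf1 (-1.33) fell too. Cox8c (0.93), Atp5k (0.87), Uqcrb (0.84, another probe set -0.44) and Cox7c (0.78) rose. Deposited values split 6 higher and 27 lower. Without surrounding E9 replicate 2 the count was 24.

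Because the same surrounding arrays enter, the ear's excess at E11 to E15 and the fall in surrounding tissue are not separate evidence. Their difference over time was tested directly as the change of the ear-to-surrounding difference from E9 to E11 to E15. This called 20 members, 13 up and 7 down, against 36.4% of all genes (20.4% up, 16.0% down). The median member changed by -0.01 and the median gene by 0.02. The assembly factors Ndufaf1 (1.90, SE 0.25, limma adjusted p = 1.42e-07) and Ndufaf7 (1.12, SE 0.19), Atp5g2 (1.50, SE 0.29), Cox7a1 (1.44, SE 0.46) and Cox8a (1.38, SE 0.32) shifted toward the ear. Atp5h (-1.04), Atp5k (-0.86), Uqcrb (-0.82) and Cox8c (-0.79) shifted toward surrounding tissue. Ndufaf1 was read at 650 and 562 in the placode and at 1085 and 996 around it, but at 401 and 407 in late surrounding tissue, below every ear array of E11 to E15, the lowest of which was 583. Deposited values split 10 up and 10 down, and the count was 13 without placode replicate 2 and 13 without replicate 2 of the late surrounding pool.

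From the placode at E9 to the vesicle at E10, members fell more often than they rose. The test called 26 of 86 (30.2%), 8 higher and 18 lower in the vesicle, against 23.4% of all genes, of which 13.3% were higher and 10.1% lower. The median member changed by -0.37 and the median gene by 0.04. Ndufaf4 was read at 491 and 411 in the placode, 174 and 279 at E9.5, and 219 and 174 at E10. It fell by 1.14 (SE 0.19, limma adjusted p = 2.14e-05), and the placode arrays lay above all 4 vesicle arrays. Ndufv2 was 1958 and 2023 in the placode and 1017 and 994 at E10, but its E9.5 arrays, at 1263 and 2136, spanned both levels. Its change was -0.97 (SE 0.18, limma adjusted p = 1.26e-04). Atp5g2 fell by 1.02 (SE 0.23) from 2415 and 2248 to 1422 and 917, and Atp5g1 by 1.09 (SE 0.32) from 1023 and 1123 to 582 and 423. Uqcr11, a small complex III subunit, changed by -1.25 (SE 0.41, limma adjusted p = 0.0244), with vesicle arrays at 718 and 350, and lost its call without vesicle replicate 2 at E10 (-0.74) and without either placode array (-1.31 and -1.18).

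Complex I had 2 members higher and 8 lower, complex II 0 and 2, complex III 0 and 1, complex IV 2 and 2, complex V 2 and 3, and the assembly factors 2 and 2. Ndufa4 (-0.98), Atp5a1 (-0.92), Ndufb5 (-0.79), Sdhd (-0.77), Cox7a2 (-0.57) and Cox7a2l (-0.57), the latter a factor for joining complexes III and IV, were among those that fell. Those that rose were Ndufaf7 (0.79), Cox6a2 (0.69), Ndufa9 (0.63), Ndufa8 (0.61), Ndufaf1 (0.58), Cox5b (0.43), Atp5j (0.36) and Atp5o (0.35). Ndufs1 (-0.02), Sdhb (0.04) and Cox6b1 (0.20), subunits of complexes I, II and IV, were not called. Summed muscle markers were 1018 and 552 in the placode and 415 and 416 in the vesicle at E10, with 0 of 3 tested markers higher and 2 lower, and their part was not tested. The count was 10 without placode replicate 1, 8 without placode replicate 2, 9 without vesicle replicate 2 at E10, 7 when only these groups were fitted, and 15 on the deposited values.

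Over E10.5 to E15 the cochlear trend pointed down for most members that were called, while that of the muscle form Cox7a1 pointed up. A trend is the fitted straight-line change over these days. It was called for 48 of 86 members (55.8%), 9 up and 39 down, against 56.0% of all genes, of which 30.5% rose and 25.5% fell. The share called was near the background, and the direction was more often down. The members' median was -0.25 and that of all genes 0.06. On the deposited values the split was 13 up and 29 down, with the median of all genes at 0.24. Within E10.5 to E12 alone, more called members rose than fell. Without the E14 arrays the split was less one-sided, and both are given below.

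Cox5a, a nuclear-encoded complex IV subunit, was read at 1741 and 1355 in the cochlea at E10.5, 1679 and 1392 at E11, 1739 and 1842 at E11.5 and 1562 and 1516 at E12. It was 1138 and 1085 at E12.5, 1157 and 999 at E13, 984 and 960 at E13.5, 374 and 389 at E14, 935 and 910 at E14.5, and 634 and 506 at E15. All arrays up to E12 lay above all later ones. Its trend was -1.67 (SE 0.17, limma adjusted p = 1.08e-10), a 3.19-fold fall. Atp5g2 followed the same course, from 2086 and 1539 at E10.5 to 616 and 554 at E15, with a trend of -1.51 (SE 0.16, limma adjusted p = 3.83e-10). Sdhd, a membrane anchor of complex II, changed by -1.22 (SE 0.19), Atp5a1 by -1.18 (SE 0.17), Atp5pb by -1.03 (SE 0.12) and Atp5g3 by -0.81 (SE 0.07).

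The 39 members that fell comprised 13 of complex I, 2 of complex II, 2 of complex III, 6 of complex IV, 11 of complex V and 5 assembly factors. The 9 that rose were 5 of complex I, 3 of complex IV and 1 of complex V. Complex V had a median of -0.46, complex II of -0.47 and complex III of 0.00. In complex I, Ndufa3 (-1.46), Ndufb1 (-1.34), Ndufs4 (-1.00) and Ndufa4 (-0.74) fell, and Ndufs7 (0.54), Ndufb10 (0.52), Ndufa8 (0.49), Ndufa7 (0.39) and Ndufv3 (0.36) rose. Ndufa7 and Ndufv3 were named after their values were seen. Of 24 called members with several probe sets, 18 had all of them pointing the same way. The exceptions were Atp5a1 (-1.18 against 0.37), Atp5c1 (-0.48 against 0.52), Atp5o (-0.24 against 0.33), Ndufab1 (-0.54 against 0.39), Ndufaf4 (-0.38 against 0.67) and Ndufs4 (-1.00 against 0.10).

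The cochlear trend was also fitted separately before and after the step from E12 to E12.5, across which the arrays' highest signals changed. Within E10.5 to E12, 22 members were called, 17 up and 5 down, against 25.9% of all genes, with a median of 0.27. Within E12.5 to E15, 18 were called, 2 up and 16 down, against 25.1% of all genes, with a median of -0.18. Ndufa3 was read at 1009 and 461 at E10.5, 2823 and 2989 at E11.5, 1918 and 2027 at E12, 691 and 932 at E12.5, and 764 and 450 at E15. The vestibular organ had the same peak of Ndufa3 at E11.5, at 2962 and 2635. Without the E14 arrays the trend was called for 36 members, 13 up and 23 down, against 52.3% of all genes. The part of the array scale in the fall was not tested, nor was that of the shorter dispase digestion at E10.5.

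Cox7a1 rose in all 3 organs followed to E15, as did Ndufa8 by smaller amounts (0.49 in the cochlea, 0.56 in the utricle with ampullae, 0.68 in the saccule). The cochlear trends span E10.5 to E15, and those of the other 2 organs E12.5 to E15. In the cochlea Cox7a1 was read between 152 and 391 on all 14 arrays from E10.5 to E13.5, then at 306 and 672 at E14, 608 and 354 at E14.5, and 1432 and 677 at E15. In the utricle with ampullae it was 180 and 304 at E12.5, 490 and 540 at E13, 595 and 497 at E13.5, 438 and 1022 at E14, 924 and 717 at E14.5, and 1305 and 948 at E15. In the saccule it was 260 and 183 at E12.5 and 450 and 665 at E15, with 191 to 396 on the arrays between. The E15 arrays were above both E12.5 arrays in each organ. The trend was 1.56 in the cochlea (SE 0.26, limma adjusted p = 3.39e-06), 1.87 in the utricle with ampullae (SE 0.32, limma adjusted p = 1.46e-05) and 1.14 in the saccule (SE 0.32, limma adjusted p = 0.0053). Within E10.5 to E12 the cochlear trend was 0.21 and not called, and the saccular one lost its call without saccule E12.5 replicate 2 (0.97) and without saccule E15 replicate 2 (0.94).

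Its counterpart Cox7a2 fell in the cochlea from 6765 and 6080 at E10.5 to 3838 and 3442 at E15 (-1.04, SE 0.12, limma adjusted p = 1.15e-09). All arrays from E10.5 to E12 were above those from E12.5 on. The 2 genes are read by different probe sets, so their levels are not compared. Summed markers of skeletal and heart muscle were 280 and 276 on the E15 cochlear arrays, below the 301 to 523 of all other cochlear arrays. They were 370 and 375 in the E15 utricle with ampullae, against 374 to 509 earlier, and 337 and 329 in the E15 saccule, below the 354 to 542 of all earlier arrays. Of the 10 muscle markers, Myh3 was at the floor on 20 of 20 cochlear and 12 of 12 saccular arrays, and 3 passed the filter, of which 0 rose and 1 fell in each of the 3 trends. The sums rest largely on Acta1, with a cochlear median of 142, while the next highest marker, Tnnc1, had 41.1. The part of muscle cells in the rise of Cox7a1 was not tested.

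**Figure D4:**
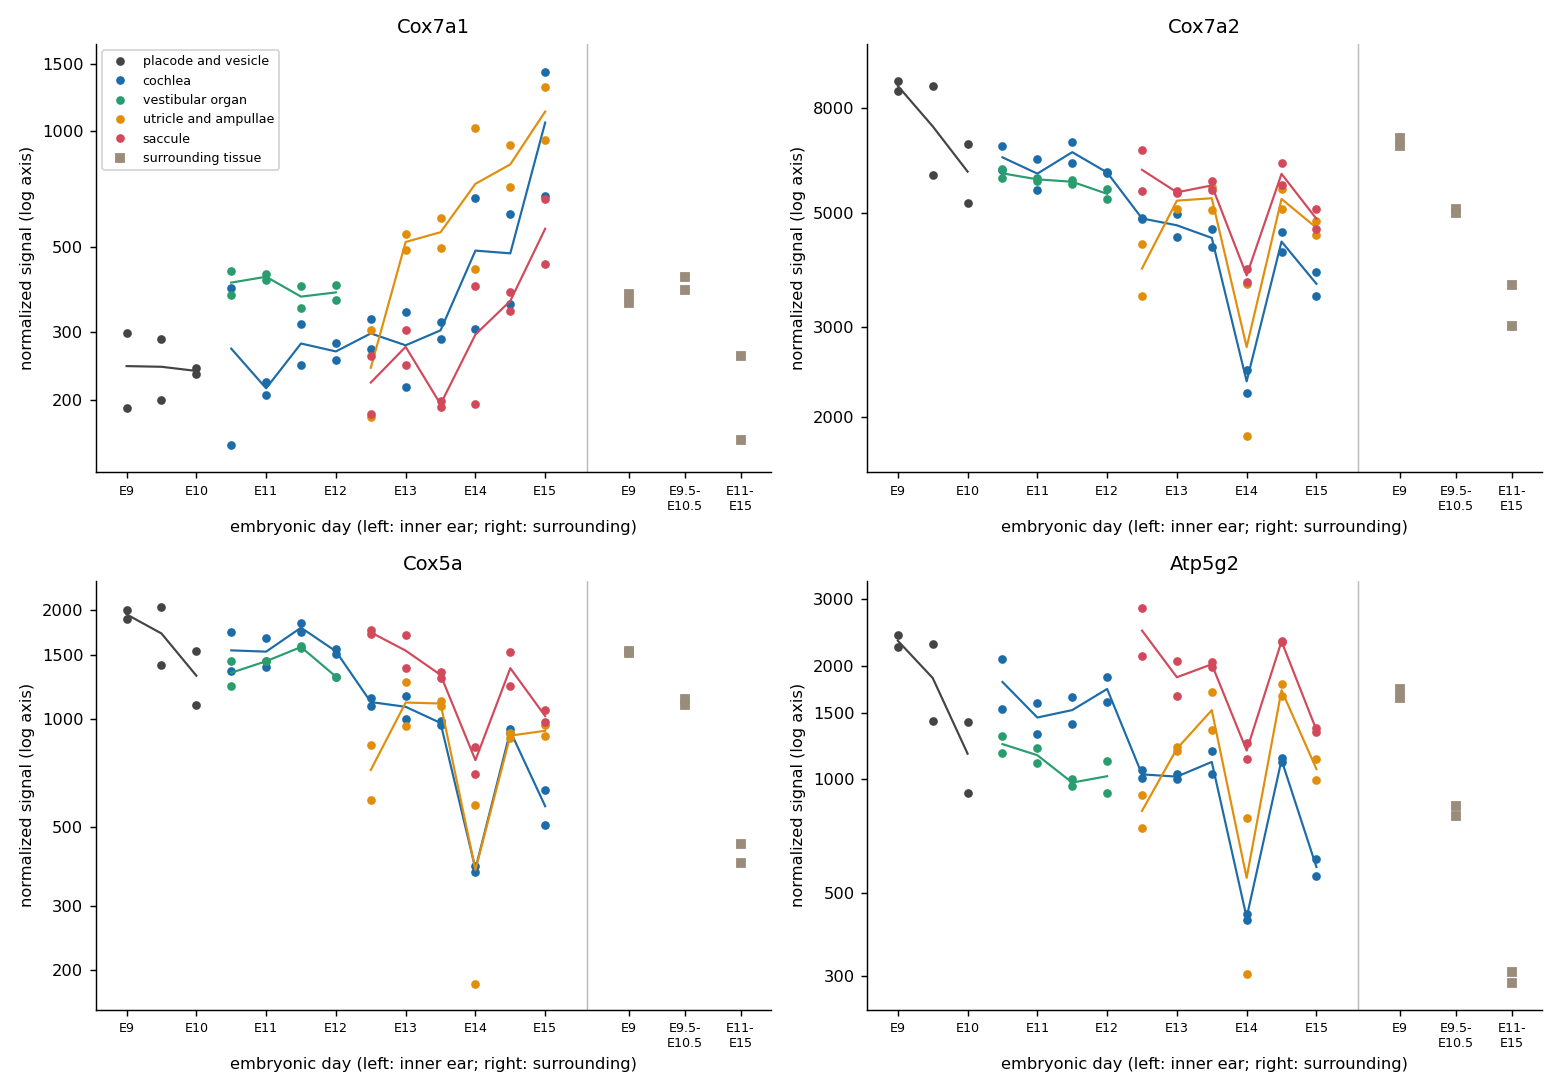
Normalized signal (log axis) of Cox7a1, Cox7a2, Cox5a and Atp5g2 on each array (dots) against embryonic day, with lines through the means of the 2 arrays and surrounding tissue at the right. Cox7a1 rises to 1432 and 677 in the E15 cochlea while the other genes fall there, and Cox7a2, Cox5a and Atp5g2 share a low point at E14.

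Among the other complex IV forms, Cox6a2 rose in the cochlea by 0.70 (SE 0.13) and its counterpart Cox6a1 fell by 0.56 (SE 0.15). Cox6a2 was dim, at 123 and 156 at E10.5, 82.6 and 83.3 at E11, and 158 and 202 at E15, and its trend passed in neither portion of the cochlear series taken alone. Cox8c rose by 0.83 (SE 0.10) and Cox8a fell by 0.65 (SE 0.18). Cox8c was low on both E11 arrays, at 175 and 171, between 405 and 491 at E10.5 and 291 and 272 at E11.5. Cox4i1 fell by 0.49 (SE 0.15). Cox4i2, the lung form, was called in none of the 15 comparisons other than the 3 at E14 described below, and neither was Ndufb8 or Ndufc1. At E14 the log2 group mean of Ndufc1 was 11.23 in the cochlea, against 11.95 at E13.5 and 11.92 at E14.5. It was 10.98 against 12.05 and 12.07 in the utricle with ampullae, and 11.53 against 12.06 and 12.03 in the saccule. Of the c subunit genes, Atp5g2 and Atp5g3 (-0.81) fell and Atp5g1 (-0.24) was not called. Cox6b1 had 1 of the steadiest levels, between 6413 and 10869 on all arrays. This is close to the highest signals of the arrays, 9660 to 14691 before normalization. Whether differences read smaller at such signals was not tested.

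The other organs were followed over shorter spans. The vestibular organ over E10.5 to E12 had 11 members called, 8 up and 3 down, against 16.5% of all genes (9.11% up, 7.38% down), with Ndufa3 (1.16), Cox6b2 (1.10), Uqcrb (1.09) and Atp5k (0.88) rising and Atp5b (-0.48) falling. Another Uqcrb probe set gave -0.00. Uqcrb went from 2590 and 2850 at E10.5 to 5860 and 5564 at E12 there, and from 2099 and 1548 to 4133 and 3991 in the cochlea over the same days. The arrays of the first and last stage did not overlap in either organ. Dispase digestion was shorter at E10.5 than at E12, and its part in these changes was not tested. Without single vestibular arrays the count was 2 (E10.5 replicate 2, E12 replicate 1), 3 (E10.5 replicate 1, E12 replicate 2), 6 (E11 replicate 1) and 7 (E11.5 replicate 1). Deposited values gave 8 up and 0 down, array weights 34 members, and the organ's own groups alone 38.

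In the utricle with ampullae over E12.5 to E15, 17 members were called, 15 up and 2 down, against 32% of all genes (17.0% up, 15.0% down). Besides Cox7a1, the iron-sulphur core subunits Ndufs7 (0.90) and Ndufs8 (0.65), Cox8a (0.65), Ndufaf3 (0.63), the complex III core protein Uqcrc1 (0.61) and Atp5d (0.59) rose, and Cox7c (-1.39, SE 0.21) and Atp5pb (-0.39) fell. The count was 3 without utricle E12.5 replicate 1, 28 without utricle E12.5 replicate 2, 29 without utricle E14 replicate 1, 11 without utricle E15 replicate 1 and 9 without utricle E15 replicate 2. It was 4 without both E12.5 arrays, 27 (26 up, 1 down) without both E14 arrays, and 9 when only the organ's groups were fitted. In the saccule 17 members were called, 5 up and 12 down, against 29.9% of all genes (14.8% up, 15.1% down). Ndufaf7 (0.89), Ndufa8 (0.68), Cox5b (0.37) and Uqcrc2 (0.23) rose with Cox7a1, and Cox7c (-0.75), Cox5a (-0.73), Uqcrc1 (-0.71), Ndufa4 (-0.66) and Atp5g2 (-0.58) fell. The saccular count was 5 without E12.5 replicate 2, 10 without E13 replicate 1, 9 without E15 replicate 1, 6 without both E12.5 arrays, and 9 (7 up, 2 down) on the deposited values.

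The cochlear and utricular trends over E12.5 to E15 were compared with each other. The difference was called for 5 members, 0 up and 5 down, against 8.09% of all genes (3.60% up, 4.49% down): Ndufb1 (-1.28), Ndufs5 (-1.21), Atp5g2 (-0.95), Ndufb6 (-0.76) and Ndufaf7 (-0.67). Ndufb1 went from 344 and 366 to 232 and 132 in the cochlea and from 168 and 265 to 369 and 276 in the utricle with ampullae. Ndufb6 had a second probe set that pointed the other way (0.17). With the pools of one stage and replicate number as a block, 8 members were called. The call count moved with single arrays, to 0 without cochlea E15 replicate 2, utricle E12.5 replicate 1 or utricle E15 replicate 1, to 1 without either E12.5 cochlear array, and to 3 without cochlea E13 replicate 1, cochlea E14.5 replicate 2, utricle E14.5 replicate 1 or utricle E15 replicate 2. It rose to 10 without cochlea E15 replicate 1, to 16 without utricle E14 replicate 1 and to 18 without utricle E12.5 replicate 2, and was 0 without all E12.5 arrays. At these counts of 0 in limma, 12, 8, 17 and 2 members had an unadjusted p below 0.05 in the order named. Fitting only these groups called 1 member, and array weights 9.

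Averaged over E12.5 to E15, the saccule had higher levels than both other organs for most members that were called. Its median excess over the utricle with ampullae was 0.53 at E12.5 and 0.44 at E14. It was 0.01 at E13.5 and E15, and at most 0.20 at the other stages. Against the utricle with ampullae, 56 of 86 (65.1%) were called, 45 higher and 11 lower in the saccule, against 42.6% of all genes, of which 21.9% were higher and 20.7% lower. Against the cochlea, 56 were called, 44 higher and 12 lower in the saccule, against 52.7% of all genes, of which 26.1% were lower and 26.6% higher in the cochlea. The comparisons share the saccular arrays, and their values are given side by side. Saccular Atp5g2 was 2120 and 2843 at E12.5, 2066 and 1665 at E13, 2052 and 1987 at E13.5, 1132 and 1252 at E14, 2330 and 2316 at E14.5, and 1337 and 1366 at E15. The utricle with ampullae gave 743 and 906, 1191 and 1220, 1701 and 1350, 305 and 790, 1661 and 1786, and 1134 and 995 at these stages. At each of the 6 stages both saccular arrays were above both utricular ones. Atp5g2 was higher in the saccule by 0.77 than in the utricle with ampullae (SE 0.10, limma adjusted p = 1.77e-08), and the cochlea was lower than the saccule by -1.10 (SE 0.10, limma adjusted p = 1.40e-12).

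Atp5e was higher in the saccule than in the utricle with ampullae by 0.84, Ndufa3 by 0.69, Cox5a by 0.66, Uqcr11 by 0.65, Cox8a by 0.59, Ndufb5 by 0.54 and Atp5a1 by 0.52. In the cochlea against the saccule the same genes differed by -0.91, -0.89, -0.66, -0.69, -0.74, -0.50 and -0.82, Ndufb5 being named there after its value was seen. By complex, the saccule exceeded the utricle with ampullae for 19 members of complex I, 1 of II, 4 of III, 7 of IV, 11 of V and 3 assembly factors, and was lower for 4, 0, 1, 4, 1 and 1. Cox7a1 went the other way, lower in the saccule than in the utricle with ampullae by -0.96 (SE 0.15, limma adjusted p = 2.84e-06), and higher in the cochlea than in the saccule by 0.48 (SE 0.15). Ndufa9 (-0.36), Uqcrb (-0.34, another probe set 0.18), Ndufb10 (-0.33) and Cox6a2 (-0.31) were also lower in the saccule than in the utricle with ampullae. The group means of 27 members were higher in the saccule than in the utricle with ampullae at all 6 stages (31.4%, against 15.4% of all genes), and those of 8 members at none (9.30%, against 15.8%).

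The saccular excess over the utricle with ampullae was uneven in time. At E12.5, E13, E13.5, E14, E14.5 and E15, 64, 63, 46, 62, 58 and 45 of 86 members had the higher group mean in the saccule, against 46.8% to 52.2% of all genes, with median differences of 0.53, 0.20, 0.01, 0.44, 0.09 and 0.01. The large values thus fell at E12.5 and E14, where the utricular arrays were low. Without the E14 arrays the count was 36 (28 higher, 8 lower), and on the deposited values 44 (25 higher, 19 lower). Against the cochlea the saccule was higher for 60, 67, 58, 64, 64 and 62 members, against 47.0% to 51.1% of all genes, with medians of 0.23, 0.20, 0.13, 0.33, 0.24 and 0.19. Of 8 mesenchymal markers tested, 5 were also higher in the saccule than in the utricle with ampullae. Mesenchymal sums were 2026 to 3482 in the saccule, 1107 to 2170 in the utricle with ampullae and 791 to 1978 in the cochlea. These sums rest largely on Pdgfra, with medians of 2111.4 in the saccule and 1154.5 in the utricle with ampullae. The medians of Prrx1, Prrx2, Twist2, Pou3f4 and Snai2 were lower in the saccule. Red blood cell markers were higher for 4 of 6, with sums of 1133 to 9373 against 688 to 3934. Hair cell sums were 318 to 4879, 264 to 2982 and 163 to 637. The part of these cells in the members' differences was not tested.

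Averaged over stages, the cochlea differed little from the vestibular organ at E10.5 to E12 or from the utricle with ampullae later. In the first comparison 21 members were called, 11 higher and 10 lower in the cochlea, against 24.2% of all genes (10.3% higher, 13.9% lower). Atp5g2 (0.56), Cox7c (0.54), Atp5pb (0.52) and Sdha (0.39) were higher, and Cox7a1 (-0.62), Sdhaf1 (-0.47) and Ndufb10 (-0.40) lower. On the deposited values the split was 1 higher and 51 lower, the median of all genes moving to -0.28, and 12 members were called without the E11 arrays. In the second, 11 were called, 3 higher and 8 lower, against 29.3% of all genes (14.9% higher, 14.4% lower), a smaller share. The average joined stages of opposite sign. The median member differed by 0.32, -0.05, -0.13, 0.04, -0.12 and -0.18 at E12.5, E13, E13.5, E14, E14.5 and E15. Cox7c (0.46), Ndufaf4 (0.24) and Atp5c1 (0.18) were higher in the cochlea, and Cox7a1 (-0.48), Atp5pb (-0.35), Atp5g2 (-0.33), Ndufb1 (-0.32) and Sdha (-0.32) lower. This count was 18 without utricle E14 replicate 1, 17 without utricle E14 replicate 2, 19 without the E12.5 arrays, and 19 (1 higher, 18 lower) on the deposited values.

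At E14 the members were low in all 3 organs at the same time, a pattern compared with E13.5 and E14.5 only after its values were seen. In the cochlea 56 of 86 members were called, 1 higher and 55 lower at E14, against 19.0% of all genes, of which 9.90% were lower. In the utricle with ampullae 57 were called, 2 higher and 55 lower, against 28.4% of all genes (14.9% lower). In the saccule 46 were called, 0 higher and 46 lower, against 11.8% of all genes (6.23% lower). The median member changed by -0.60, -0.77 and -0.51, and the median gene by 0.02, 0.06 and -0.00. In all, 38 members (44.2%) were lower in each of the 3 organs, against 3.66% of all genes, and 61 (70.9%) in at least 1, against 18.4%. The organs may not be independent here: E14 pools of the same replicate number held the same number of tissues (10 and 13) and deviated together, at correlations of 0.35, 0.57 and 0.47, and shared embryos or handling cannot be told apart from stage.

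Atp5e was read in the cochlea at 735 and 762 at E13.5, 164 and 216 at E14, and 852 and 722 at E14.5. In the utricle with ampullae it was 1127 and 901, then 64.6 and 373, then 1088 and 1098. In the saccule it was 1130 and 1207, then 453 and 681, then 1408 and 1227. Both E14 arrays lay below all 4 neighbouring arrays in every organ, and the difference was -1.94 (SE 0.35, limma adjusted p = 2.05e-04), -2.59 (SE 0.35, limma adjusted p = 7.35e-07) and -1.13 (SE 0.35, limma adjusted p = 0.0317). Ndufb5, the closest follower of the members' median and named here after its values were seen, was 805 and 857, 319 and 375, and 842 and 818 in the cochlea over these stages, a change of -1.23. It was 1082 and 1030, 523 and 601, and 1252 and 1157 in the saccule, a change of -0.99. Sdhb, the iron-sulphur subunit of complex II, was lower too, by -0.60, -0.47 and -0.55 in cochlea, utricle with ampullae and saccule.

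Complex I had 23 of 34 members lower in the cochlea, 25 in the utricle with ampullae and 22 in the saccule, and complex V 13 of 17 in each. Complex III had 6, 4 and 3 of 8 members lower, complex IV 8, 7 and 6 of 15, complex II 2, 2 and 1 of 4, and the assembly factors 3, 4 and 1 of 8. Ndufa3 (-1.92, -2.41 and -1.26), Uqcr11 (-1.53, -2.27 and -1.14) and Atp5g1 (-1.16, -1.97 and -1.01) were among the largest changes. Other members did not follow. Cox6b1 (0.03, 0.05 and -0.22), Atp5b (0.06, 0.23 and -0.12), Ndufv1 (-0.01, 0.23 and -0.20) and Sdha (-0.15, 0.32 and 0.32) were called in none of the 3 organs. Cox8c was higher in cochlea (0.42) and in utricle with ampullae (0.37). Sdhc was also higher in the latter (0.34), but another of its probe sets gave -0.86 there. A second probe set of Atp5c1, Ndufs4, Uqcrq and Ndufab1 pointed the other way in at least 2 of the organs.

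The dip was present on every E14 array. Of 86 members, 69 and 63 lay below all 4 neighbouring arrays on the cochlear E14 arrays, 68 and 62 on the utricular ones and 69 and 62 on the saccular ones. Over all genes the shares were 31.9% and 30.5%, 33.8% and 30.1%, and 33.9% and 27.0%, against 72.1% to 80.2% of members. The members' median distance from the neighbouring mean was -0.69 and -0.51, -1.09 and -0.48, and -0.66 and -0.38. Replicate 1 was the lower array in each organ. Without it the count fell to 24 in the cochlea, 33 in the utricle with ampullae and 1 in the saccule, where it was also 30 and 26 without either E13.5 array and 17 without E14.5 replicate 1. When only the organ's groups were fitted, 5 members were called in the utricle with ampullae and 10 in the saccule, and the deposited values gave 29 in the saccule. Trimmed means before normalization were 234.9 and 253.2 on the E14 cochlear arrays against 256 to 266.1 on their neighbours, 245.8 and 264.3 against 280.3 to 288.4 in the utricle with ampullae, and 260.3 and 254.6 against 258.4 to 263 in the saccule. At E14, 6.49% to 7.23% of probe sets lay at the floor and array medians were 85.6 to 89.1. At E13.5 these were 6.37% to 7.46% and 82.9 to 90.8, and at E14.5 6.83% to 7.12% and 85.2 to 91.2. Genes of the mitochondrial ribosome were low at the same arrays, for 33, 40 and 19 of 74 tested, with 2, 1 and 0 higher. Whether tissue, dissection or RNA set the E14 arrays apart was not tested.

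**Figure D5:**
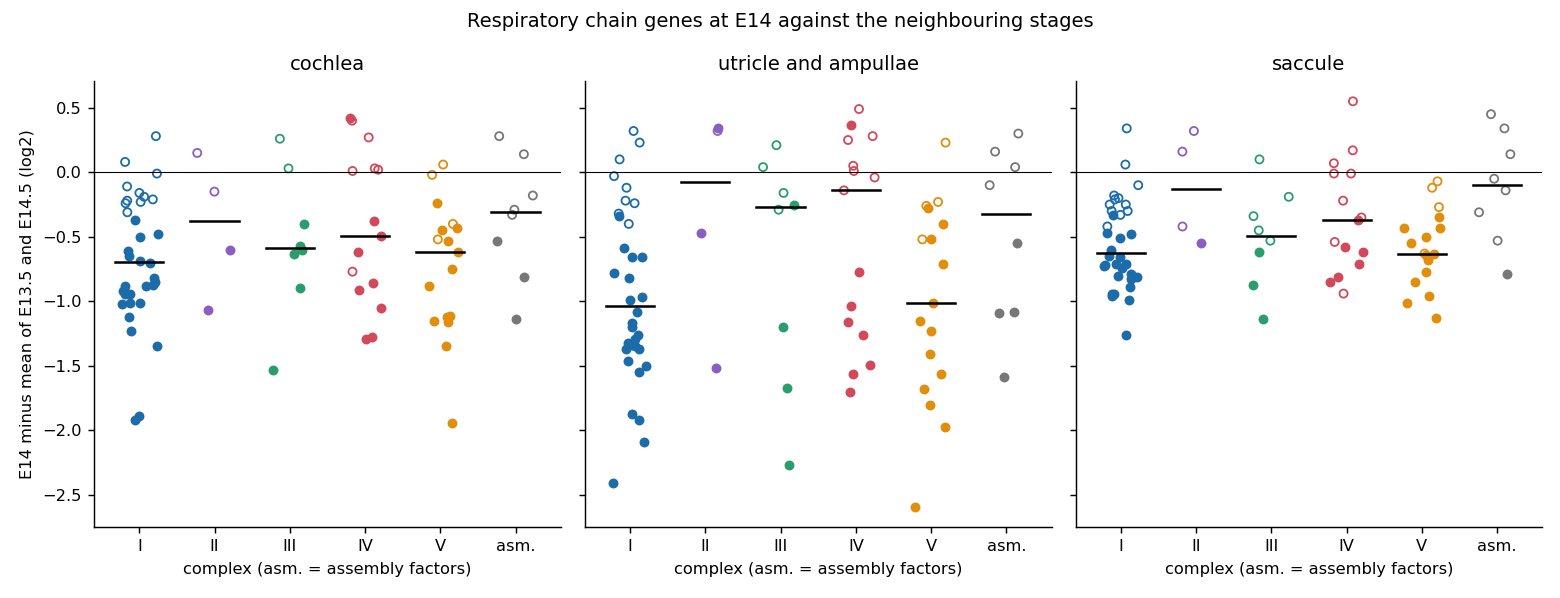
Log2 difference of each member between E14 and the average of the E13.5 and E14.5 groups, by complex, in the cochlea, the utricle with ampullae, and the saccule. Filled dots passed the test and bars mark medians, which lie below 0 for every complex in each organ.

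Other mitochondrial genes were counted on lists drawn up with earlier results of these data known, to be read against the shares of all genes given above. In the cochlear trend, 3 of 19 genes of pyruvate dehydrogenase and the citric acid cycle rose and 12 fell, with a median of -0.46, including Sucla2 (-1.47) and Idh3a (-1.02). Of 74 mitochondrial ribosome genes 13 rose and 36 fell (median -0.35), of 13 carriers 1 rose and 7 fell, and of 18 assembly factors outside the symbol rule 2 rose and 7 fell. Of 11 regulators of mitochondrial biogenesis 3 rose and 5 fell, with Esrrb (2.34) and Ppargc1a (2.00), which encode an orphan nuclear receptor and a coactivator, rising. Glycolytic genes gave 4 up and 7 down of 16 in the cochlea over E10.5 to E15, and 10 up and 1 down in the saccule over the shorter span of E12.5 to E15. In the ear against surrounding tissue at E11 to E15, 32 mitochondrial ribosome genes of 74 were higher and 16 lower, and 8 and 3 of the 19 citric acid cycle genes. Among other complex III genes and electron carriers, 6 of 10 were higher and 3 lower, with Etfa (1.36) the most changed. From placode to vesicle, 6 mitochondrial ribosome genes rose and 22 fell.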

How the data were processed

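Each of the 64 samples was hybridised to 1 Affymetrix array. The authors deposited 1 table of intensity values per probe set, made with MAS5 per the submitters' processing notes. Its version and its scaling were not given in the sources used here. Quantile normalization was applied because the 2% trimmed means of the arrays ranged 1.581-fold, above the limit of 1.2. Values were used as log2(signal + 16). Of 22626 probe sets, 20380 had 1 gene symbol, 691 several and 1555 none. Genes needed a signal at or above the array median on at least 2 of 64 arrays, and the kept probe set with the highest mean stood for a gene. One limma model (limma 3.58.1, R 4.3.3) held 32 group terms, with 32 residual degrees of freedom and a variance trend. Calls used Benjamini-Hochberg adjusted p below 0.05 over 9352 genes, and trends are least-squares slopes times the days spanned. The procedure was tested on simulated data. The number of arrays limits the precision, and RNA degradation was not analysed here.

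Per comparison and complex, up to 3 called members with the largest rise and up to 3 with the largest fall were named, plus a fixed panel of subunits, and from other lists up to 3 called genes. Members, lists and comparisons were chosen with earlier results of these data known. Same-numbered cochlear and utricular pools deviated together, with correlations of 0.51, 0.46, 0.20, 0.35, 0.27 and 0.27 from E12.5 to E15. The main model did not pair these pools, and a block by stage and replicate number was fitted only as an alternative. No shared litter is stated for them. Alternatives covered the pseudocount, the filter, the deposited values, every probe set alone, array weights, the groups fitted, replicate blocks, stage ranges and leaving out each array.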

Additional observations from a re-analysis of the deposited data

Results flagged for a closer look

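The difference between the ear and its surrounding tissue changed from E9 to E11 to E15 for 20 members, by a test of the change itself. It fell by log2 values of -1.04 for Atp5h, -0.86 for Atp5k, -0.82 for Uqcrb, -0.79 for Cox8c, -0.76 for Ndufv3, -0.68 for Atp5c1 and -0.66 for Ndufa10. It rose by 0.44 for Cox5b, 0.58 for Sdhaf2, 0.63 for Atp5b, 0.88 for Atp5pb, 0.97 for Ndufb1 and 0.99 for Cox5a. The larger rises were 1.03 for Sdhaf1, 1.10 for Ndufs3, 1.12 for Ndufaf7, 1.38 for Cox8a, 1.44 for Cox7a1, 1.50 for Atp5g2 and 1.90 for Ndufaf1. Across all genes, 36.4% passed the same test.

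The trend over E12.5 to E15 differed between the cochlea and the utricle with its ampullae for 5 members, by a test of that difference. The log2 values, cochlea minus utricle, were -1.28 for Ndufb1, -1.21 for Ndufs5, -0.95 for Atp5g2, -0.76 for Ndufb6 and -0.67 for Ndufaf7. Across all genes, 8.09% passed.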

How the results depend on the processing

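Counts of called members under the pseudocounts of 1 and 64 and the filter of 16 arrays stayed within 1.5 times the reported ones. Without a filter the vestibular trend gave 7. On the deposited values the counts were 42 at E9, 42 at E9.5 to E10.5, 15 from placode to vesicle, 9 for the saccular trend, 52 for cochlea against vestibular organ, 19 for cochlea against utricle and 29 for the saccule at E14. With every probe set tested alone they were 8 at E9, 12 at E9.5 to E10.5 and 5 for the vestibular trend. Array weights gave 39 at E9, 29 at E9.5 to E10.5, 34 for the vestibular trend, 9 for the cochlear minus utricular trend and 37 for cochlea against vestibular organ. Fitting only the groups compared gave 37 at E9, 11 at E9.5 to E10.5, 7 from placode to vesicle, 38 and 9 for the vestibular and utricular trends, 1 for the cochlear minus utricular trend, 34 for cochlea against vestibular organ, and 5 and 10 for the utricle and saccule at E14.

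The replicate number as a block moved no count by over 1.5 times (26 from placode to vesicle, 48 for the cochlear trend), except that a block by stage gave 8 for the cochlear minus utricular trend. By stage it gave 24 for cochlea against vestibular organ, 57 for cochlea against saccule and 62 for saccule against utricle, pairs of organs whose numbers did not correlate throughout. These correlations were -0.01 to 0.19 between cochlea and vestibular organ, and between the saccule and the other 2 organs 0.13 to 0.57 up to E14.5 but -0.50 and -0.34 at E15. The cochlear trend gave 22 over E10.5 to E12 and 18 over E12.5 to E15, and the vestibular trend 3 over E11 to E12. Without the E11 arrays cochlea against vestibular organ gave 12. Without E14, the utricular trend gave 27 and saccule against utricle 36. Without E12.5 the cochlear minus utricular trend gave 0 (2 at an unadjusted p below 0.05 in limma), cochlea against utricle 19, and the utricular and saccular trends 4 and 6. The settings without E12.5, and without E14 between organs, were chosen after seeing the data.

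Leaving out single arrays gave 3 to 5 at E9, 9 to 22 at E9.5 to E10.5, 32 to 52 at E11 to E15, 13 to 25 for the change between them, 8 to 23 from placode to vesicle, 43 to 49 for the cochlear, 2 to 10 for the vestibular, 3 to 29 for the utricular and 5 to 18 for the saccular trend. It gave 0 to 18 for the cochlear minus utricular trend, 14 to 26 for cochlea against vestibular organ, 8 to 18 against utricle and 51 to 56 against saccule, 51 to 61 for saccule against utricle, and 24 to 30 for surrounding tissue. At E14 the ranges were 24 to 51 in the cochlea, 33 to 60 in the utricle and 1 to 47 in the saccule. The array left alone in a group was assumed to vary like the other groups.

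Of the values of named members, 0 changed sign to a call or from one when an array was left out, and 31 did so under other settings. Over E10.5 to E12 alone the cochlear trends were -0.29 for Cox8c, 0.07 for Cox5a, 0.18 for Cox8a, -0.18 for Ndufs7, 1.75 for Ndufa3, 0.43 for Ndufb1, 0.27 for Ndufs4, 0.06 for Uqcrfs1, 0.07 for Uqcrc2, 0.28 for Ndufa4 and 0.54 for Ndufc2. They were -1.16 for Uqcrc1, 0.22 for Cox4i1, 0.82 for Cox5b, 0.51 for Cox6a1, 1.67 for Cox6b2, 0.36 for Cox6c, 0.20 for Atp5c1 and 0.14 for Atp5g3. Over E12.5 to E15 alone Atp5c1 gave 0.02. On the deposited values, cochlea against vestibular organ gave -0.06 for Cox7a2l, -0.17 for Ndufab1, -0.22 for Uqcrc2, -0.32 for Ndufc2, -0.20 for Sdhc, -0.28 for Uqcrfs1, -0.39 for Cox6a1, -0.35 for Cox6c, -0.36 for Cox7a2 and -0.27 for Atp5g3, and saccule against utricle gave -0.00 for Atp5b. The cause was not tested. Single arrays at or near the floor, as for Cox4i2 and Cox6b2, limit what can be read.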
